A study of Oryza sativa Japonica Group and Oryza sativa Indica Group with 10 samples.

Results

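Expansins are small secreted proteins of the plant cell wall, and 33 probe sets measured 29 of their genes in young rice panicles, among 17905 genes paired with a probe set of the array. Members were the probe sets of the rice array paired with exactly 1 gene whose symbol or synonym follows the expansin naming series, OsEXPA for alpha-expansins, OsEXPB for beta-expansins and OsEXLA or OsEXLB for expansin-like genes, each followed by a number. Of 49 genes so named in the annotation, 14 of 29 alpha, 11 of 15 beta and 4 of 5 expansin-like genes had a probe set. They gave 16 alpha, 12 beta and 5 expansin-like probe sets of the 57258 rice probe sets on the array. The other 20 genes were not analysed here.

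Expansins loosen the wall without cutting its polymers: they weaken the non-covalent contacts between cellulose microfibrils and the matrix around them, most strongly at acid pH, and turgor then stretches the cell. Alpha-expansins act in this way on the walls of most land plants. Beta-expansins are numerous in grasses, act on the arabinoxylan-rich grass wall and include the major group of grass pollen allergens. Expansin-like proteins have the same domain layout, but no wall-loosening activity has been shown for them. Panicle primordia that elongate and form spikelet organs are tissues in which cells divide and expand together.

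The samples were young panicles 2 cm long from 93-11, an indica rice cultivar, and from Nipponbare, a japonica cultivar, with 5 biological replicates of each. Biotin-labelled cRNA prepared from total RNA of each sample was hybridised to a 1-colour Affymetrix rice expression array. The labels name no transgene and no treatment, and the age of the plants was not given in the sources used here. Most probes of this array were designed on japonica transcripts, so that in 1 probe set a lower transcript level in 93-11 and a poorer match of its transcript to the probes cannot be told apart.

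The values were probe set signals in arbitrary units. The trimmed mean of all rice probe sets lay between 195.9 and 235.5 on the 93-11 arrays and between 204.8 and 377.4 on the Nipponbare arrays, where replicate 2 was the brightest. Each comparison is therefore given as deposited and after every array was scaled to the same trimmed mean. The median difference over all rice probe sets, 93-11 minus Nipponbare on the log2 scale, was -0.16 as deposited and 0.03 after scaling. Panicle identity was checked with 8 genes of the inflorescence and floral meristem: 13 of their 15 probe sets were above the level of 2.5 on the log10 scale in both cultivars, and their summed signal was 26030 to 34460 in 93-11 and 29620 to 48650 in Nipponbare. Single panicle genes did differ between the cultivars: SPL14 was higher in 93-11 by 1.43 and RFL by 0.68 on the log2 scale as deposited, LAX1 was higher by 0.88 after scaling alone, and 1 of the 2 OSH1 probe sets was lower, at -1.66 as deposited. None of 14 endosperm storage and starch probe sets was above that level. Of the leaf list, 2 of 4 genes had probe sets, with a summed signal of 460 to 2415 in 93-11 and 11240 to 18730 in Nipponbare. The difference came from CAB2R, a light-harvesting protein gene, whose stronger probe set averaged 573 in 93-11 and 8948 in Nipponbare, while the 4 RBCS probe sets were below 2.5 in both. Whether this leaf gene difference or those of the panicle genes had a part in any expansin difference was not tested.

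A minority of the expansin probe sets carried strong signal, and they were alpha- and beta-expansins. The log10 signal averaged over 2.5 in each cultivar for 6 of 16 alpha probe sets (37.5%), 3 of 12 beta probe sets (25%) and 0 of 5 expansin-like probe sets. The total of 9 of 33 was 27.3%, against 19.2% of all rice probe sets and 40.1% of those paired with exactly 1 gene. The same 3 counts were found after scaling. Taken by gene, with the strongest probe set of each, 6 of 14 alpha, 3 of 11 beta and 0 of 4 expansin-like genes were above the level. The order of the classes by median signal was the reverse of their order by strong members: the median probe set had a signal of 14.1 in 93-11 and 10.9 in Nipponbare for alpha, 53.2 in 93-11 and 72.3 in Nipponbare for beta, and 87.2 in 93-11 and 129.5 in Nipponbare for expansin-like genes. The alpha class thus held both strong members and many near background, with few between. The expansin-like probe sets were at intermediate level, except that OsEXLA3 came close to the strong members. Its mean log10 signal was 2.67 in 93-11 and 2.497 in Nipponbare, so that the count of 0 rested on a narrow margin. Probes differ in affinity, so signals of different probe sets are set side by side and are not ratios of transcript amounts.

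**Figure D1:**
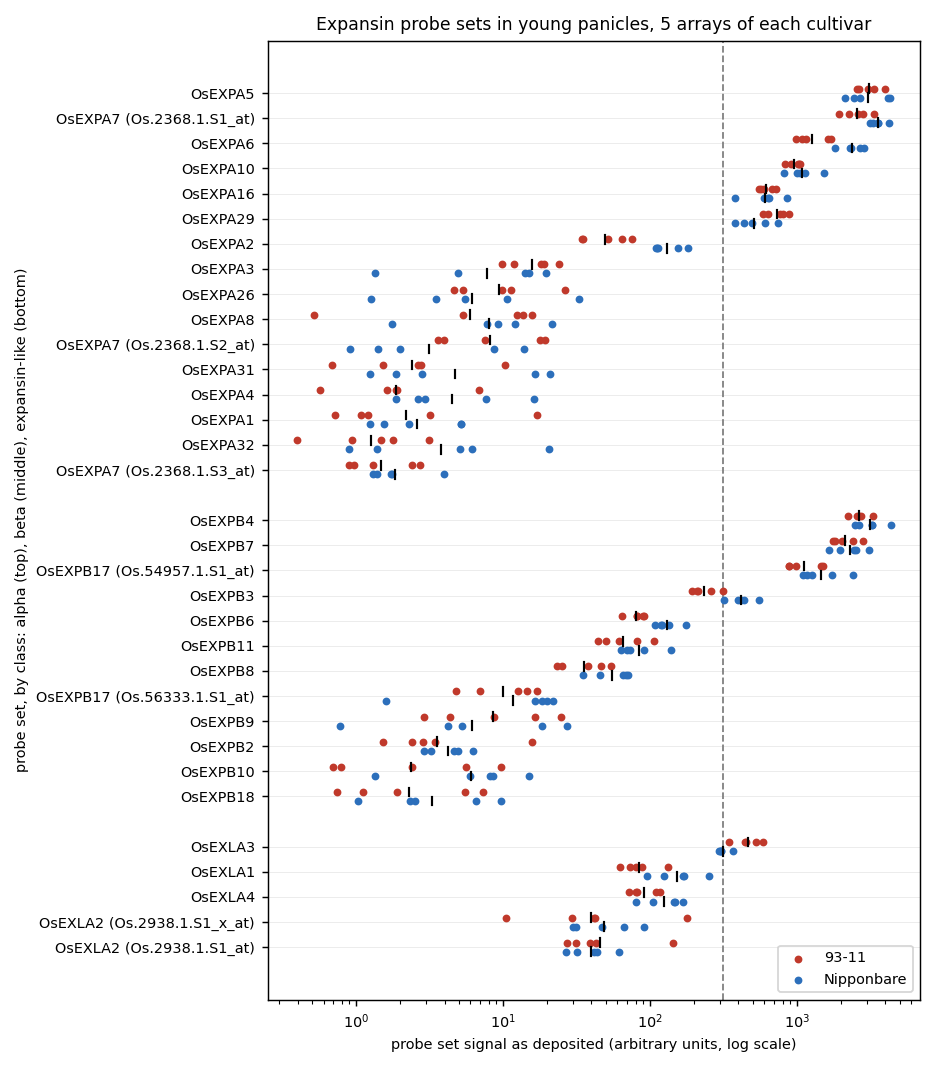
Signal of each of the 33 expansin probe sets on each of the 10 arrays as deposited, on a log axis in arbitrary units, grouped by class with 93-11 (red) above Nipponbare (blue). Black ticks are geometric means of 5 arrays, and the dashed line is 2.5 on the log10 scale: 6 alpha and 3 beta probe sets lie to its right in both cultivars, and no expansin-like probe set does.

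Among alpha-expansins, OsEXPA5 and OsEXPA7 had the highest signals. OsEXPA5 had 3998, 2565, 3057, 2634 and 3349 in the 93-11 replicates 1 to 5, against 2707, 4292, 4200, 2466 and 2138 in the Nipponbare replicates. The cultivars overlapped over most of this range, and Nipponbare held both the highest and the lowest array. The log2 difference, on log2(signal + 16) as for all differences below, was 0.02 with a 95% interval of -0.43 to 0.47 as deposited (limma, adjusted p = 0.97), and 0.38 with an interval of 0.09 to 0.66 after scaling (adjusted p = 0.069). After scaling, OsEXPA5 had 3211 to 4165 in 93-11 and 2309 to 3801 in Nipponbare, where replicate 3 was the highest and the next array, replicate 2, had 2790. Without Nipponbare replicate 3 the scaled difference was 0.49 and passed the threshold (adjusted p = 0.0047).

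OsEXPA7 was covered by 3 probe sets that did not give 1 level. The probe set ending in S1_at had 2813, 1945, 2595, 2269 and 3339 in 93-11, against 3583, 4244, 3563, 3323 and 3169 in Nipponbare. Its difference was -0.48 as deposited (adjusted p = 0.069) and -0.12, interval -0.39 to 0.14, after scaling (adjusted p = 0.59). The other two probe sets of the gene were near background on every array: the one ending in S2_at averaged 10.4 in 93-11 and 5.35 in Nipponbare, and the one ending in S3_at averaged 1.66 in 93-11 and 2.03 in Nipponbare. The gene was therefore strong by 1 of its 3 probe sets, in both cultivars, and which of them follows the gene's transcript was not tested.

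OsEXPA6 was the strong alpha-expansin that was called lower in 93-11 by both fits. It had 1621, 1146, 1715, 1082 and 985 in 93-11, against 2341, 2851, 2695, 2306 and 1824 in Nipponbare. Every 93-11 array was below every Nipponbare array, as deposited and after scaling. The means were 1310 ± 333 in 93-11 and 2404 ± 398 in Nipponbare (SD, n = 5 each), a log2 difference of -0.89 with an SE of 0.19 (limma, adjusted p = 0.0033). After scaling the means were 1493 ± 267 in 93-11 and 2150 ± 209 in Nipponbare (SD, n = 5 each), and the difference was -0.53 (adjusted p = 0.0061). In bulk panicle RNA, a smaller number of cells that express a gene and less of its RNA per cell cannot be told apart, here and in every comparison below.

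OsEXPA29 and OsEXPA16, a pair of moderately strong alpha-expansins, were higher in 93-11 after scaling. OsEXPA29 had 884, 586, 811, 764 and 637 as deposited in 93-11, against 434, 738, 603, 376 and 494 in Nipponbare, with an overlap made by Nipponbare replicates 2 and 3. Its difference as deposited was 0.49, interval 0.08 to 0.89, short of the threshold (adjusted p = 0.12), and passed it without Nipponbare replicate 2, the brightest array (difference 0.61, adjusted p = 0.026). After scaling it had 734 to 953 in 93-11 and 352 to 591 in Nipponbare, with no overlap. The scaled difference was 0.84 with an SE of 0.14 (adjusted p = 0.0007).

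OsEXPA16 had 721, 553, 681, 569 and 598 in 93-11, against 598, 857, 649, 639 and 380 in Nipponbare. As deposited the means were alike, 624 ± 73.4 in 93-11 and 625 ± 170 in Nipponbare (SD, n = 5 each), and the difference was 0.04, interval -0.37 to 0.44 (adjusted p = 0.94). After scaling the 93-11 arrays lay between 693 and 752 and the Nipponbare arrays between 455 and 598. The scaled difference was 0.38 with an SE of 0.09 (adjusted p = 0.0065), so that the call rested on the scaling.

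OsEXPA10, a gene known in rice roots for its induction by aluminium, completed the strong alpha group with 824 to 1053 in 93-11 and 821 to 1534 in Nipponbare. Its difference was -0.17, interval -0.53 to 0.18, as deposited (adjusted p = 0.59) and 0.18, interval 0.02 to 0.34, after scaling (adjusted p = 0.14). Scaling brought its 10 arrays close together, to 1032 to 1213 in 93-11 and 906 to 1066 in Nipponbare. The SD of log2 signal between replicates was 0.26 before and 0.09 after.

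OsEXPA2 was the weaker alpha-expansin with the widest cultivar difference of the 33 probe sets as deposited. It had 75, 34.2, 64.1, 35.1 and 52.2 in 93-11, against 113.8, 155.8, 182.8, 109.5 and 111.4 in Nipponbare. No array of one cultivar reached the range of the other, as deposited or after scaling. The means were 52.1 ± 17.9 in 93-11 and 135 ± 33.1 in Nipponbare (SD, n = 5 each). The difference was -1.16 with an SE of 0.23 as deposited (adjusted p = 0.0021), a signal 2.23-fold lower on this scale, and -0.87 after scaling (adjusted p = 0.0044). The other 9 alpha probe sets had means between 1.55 and 16.6 in 93-11 and between 2.03 and 11.0 in Nipponbare, and none passed the test in either form. They include OsEXPA4, which promotes internode and coleoptile growth in rice, at 2.57 in 93-11 and 6.26 in Nipponbare, and OsEXPA8, which affects root growth in rice, at 9.55 in 93-11 and 10.5 in Nipponbare.

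Among beta-expansins, OsEXPB4 and OsEXPB7 were the strongest and did not pass the test. OsEXPB4 had 3287, 2212, 2732, 2551 and 2665 in 93-11, against 2635, 4355, 3252, 3230 and 2501 in Nipponbare. The cultivars overlapped, and the difference was -0.23, interval -0.60 to 0.14, as deposited (adjusted p = 0.47) and 0.12, interval -0.06 to 0.31, after scaling (adjusted p = 0.42). By the suffix of its name, _s_at, the OsEXPB4 probe set may also hybridise with related transcripts.

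OsEXPB7 had 2812, 2043, 2399, 1754 and 1807 in 93-11, against 1666, 2511, 3100, 1973 and 2466 in Nipponbare. Both the lowest and the highest array were Nipponbare arrays. The difference was -0.11, interval -0.51 to 0.30, as deposited (adjusted p = 0.79) and 0.25, interval -0.14 to 0.64, after scaling (adjusted p = 0.44). OsEXPB8, which lies next but one to OsEXPB7 on chromosome 3, had 37.5 ± 13.6 in 93-11 and 57.1 ± 15.9 in Nipponbare (SD, n = 5 each).

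OsEXPB17 had 2 probe sets at different levels. The stronger had 1511, 980, 1463, 891 and 884 in 93-11, against 1264, 1745, 2401, 1175 and 1095 in Nipponbare, with a difference of -0.39 (adjusted p = 0.33) as deposited and -0.04 (adjusted p = 0.92) after scaling. The weaker averaged 11.2 ± 5.17 in 93-11 and 15.7 ± 8.10 in Nipponbare (SD, n = 5 each). As for OsEXPA7, the strong reading of the gene came from 1 probe set, and the cultivars overlapped in both.

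OsEXPB3 was lower in 93-11. It had 259, 212, 208, 194 and 314 in 93-11, against 415, 548, 438, 320 and 398 in Nipponbare, without overlap as deposited. Its mean log10 signal was 2.37 in 93-11 and 2.62 in Nipponbare, above 2.5 in Nipponbare alone. The means were 237 ± 49.1 in 93-11 and 424 ± 82.5 in Nipponbare (SD, n = 5 each), with a difference of -0.80 and an SE of 0.18 (limma, adjusted p = 0.0059). After scaling, 93-11 replicate 5 at 369.7 stood above Nipponbare replicates 2 and 4, at 356.6 and 299.9, and the difference of -0.46 was close to the threshold (adjusted p = 0.046). The scaled call was lost without any 1 of 8 arrays, namely 93-11 replicates 1 to 4 and Nipponbare replicates 1, 2, 3 and 5, with an adjusted p of up to 0.107.

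OsEXPB6 had 89.5, 81.8, 91.1, 64.1 and 81.1 in 93-11, against 109.1, 175.7, 121.7, 135.1 and 118.1 in Nipponbare. These did not overlap, and the difference of -0.59 with an SE of 0.19 passed the threshold narrowly (adjusted p = 0.045). It was lost without any 1 array other than Nipponbare replicate 5, with an adjusted p of up to 0.125. After scaling the difference was -0.29, interval -0.56 to -0.01 (adjusted p = 0.17), and the ranges met at 102.5 in 93-11 replicate 2 and 98.4 in Nipponbare replicate 1.

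OsEXPB6, OsEXPB2, OsEXPB3 and OsEXPB4 follow each other on chromosome 10 with 0 genes between them in the RefSeq annotation, and their signals were not alike. OsEXPB2 was near background, at 5.21 ± 5.96 in 93-11 and 4.39 ± 1.35 in Nipponbare (SD, n = 5 each). Its neighbour OsEXPB3 was at intermediate level and lower in 93-11, and OsEXPB4 at the end of the run was strong in both cultivars. Of the 8 beta probe sets below 2.5 in both cultivars, OsEXPB11 was next to OsEXPB6 in level, at 68.8 ± 25.3 in 93-11 and 87.4 ± 31.1 in Nipponbare (SD, n = 5 each). OsEXPB9 and OsEXPB10 averaged 11.4 and 3.84 in 93-11, against 11.2 and 7.82 in Nipponbare.

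Of the markers of pollen and the late anther, a stage at which beta-expansins of the allergen group are made in grasses, 3 of 6 genes had probe sets. The early anther gene MSP1 was at 2969 ± 671 in 93-11 and 3938 ± 731 in Nipponbare (SD, n = 5 each). The tapetum genes TDR and OsC6 were weak, at 18.1 and 19.6 in 93-11 and at 62.7 and 23.1 in Nipponbare.

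OsEXLA3 was the expansin-like gene of highest signal and was higher in 93-11. It had 530, 447, 447, 345 and 588 in 93-11, against 296, 369, 307, 298 and 304 in Nipponbare. As deposited the ranges met in 1 place, where 93-11 replicate 4 was below Nipponbare replicate 2. The means were 471 ± 92.4 in 93-11 and 315 ± 30.4 in Nipponbare (SD, n = 5 each), with a difference of 0.54 and an SE of 0.16 (limma, adjusted p = 0.038). This call was lost without any 1 of 93-11 replicates 1, 2, 3 and 5 or Nipponbare replicates 1, 3 and 4, with an adjusted p of up to 0.102. After scaling there was no overlap, with 430 to 692 in 93-11 and 240 to 365 in Nipponbare, and the difference was 0.88 with an SE of 0.14 (adjusted p = 0.00038). OsEXLA3 was above 2.5 on the log10 scale in 93-11 alone, at 2.67, while its 2.497 in Nipponbare was the member value nearest to that level.

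OsEXLA1 lay on the other side. It had 62.3, 73.4, 80.6, 87.7 and 132.1 in 93-11, against 170.6, 250.4, 166.9, 95.7 and 123.8 in Nipponbare, where 93-11 replicate 5 overlapped with Nipponbare replicates 4 and 5. The difference was -0.75, interval -1.28 to -0.23, as deposited, just short of the threshold (adjusted p = 0.055), and -0.44 after scaling (adjusted p = 0.19). It passed as deposited without 93-11 replicate 5 (adjusted p = 0.025), Nipponbare replicate 4 (0.0246) or Nipponbare replicate 5 (0.0349), and after scaling without 93-11 replicate 5 (0.0445).

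OsEXLA4 had 117.6, 81.1, 110.3, 80.1 and 71.9 in 93-11, against 80.6, 146.3, 168.7, 147.5 and 104.5 in Nipponbare. The difference was -0.41, interval -0.87 to 0.06, as deposited (adjusted p = 0.28) and -0.10 after scaling (adjusted p = 0.79). In the 2 probe sets of OsEXLA2 the same 93-11 array was the highest. In the set ending in S1_at, 93-11 replicate 5 had 143.6 and the other 93-11 arrays 27.3 to 43, against 27 to 61.4 in Nipponbare. In the set ending in S1_x_at the same array had 178.4 and the other 93-11 arrays 10.4 to 42.4, against 30 to 90.8 in Nipponbare. Dixon's test, described below, set this array apart in the set ending in S1_at alone. Neither probe set passed the limma test in either form.

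**Figure D2:**
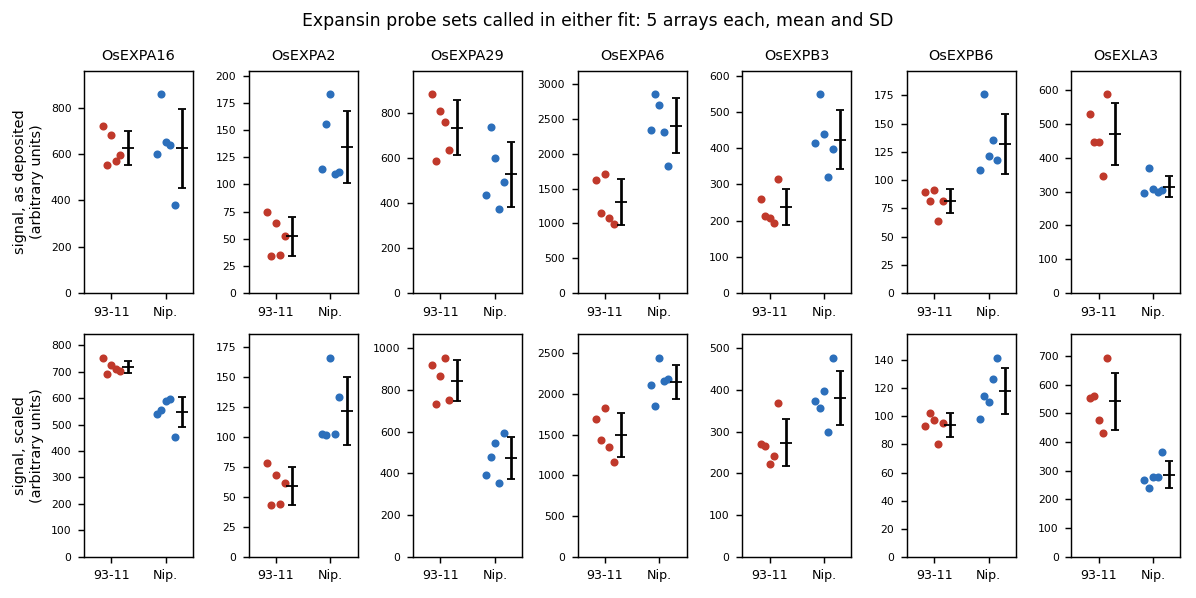
Signal of the 7 expansin probe sets called in either fit, as deposited (top) and scaled (bottom), in arbitrary units with 93-11 left of Nipponbare (Nip.); points are the 5 arrays of each cultivar in order of replicate number, and bars are mean and SD. OsEXPA2 and OsEXPA6 separate the cultivars in both rows, whereas OsEXPA16 and OsEXPA29 separate them in the scaled row alone.

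Over the whole family, 1 probe set was called higher in 93-11 (OsEXLA3) and 4 lower (OsEXPA2, OsEXPA6, OsEXPB3 and OsEXPB6) as deposited. The same fit called 1.66% of all rice probe sets higher and 11.9% lower. The expansin shares were 3.03% and 12.1%. After scaling, 3 were higher (OsEXPA16, OsEXPA29 and OsEXLA3) and 3 lower (OsEXPA2, OsEXPA6 and OsEXPB3), 9.09% each, beside 7.84% higher and 9.21% lower of all rice probe sets. At an unadjusted p under 0.05 there were 2 higher and 6 lower as deposited, and scaled values gave 5 higher and 4 lower. Cultivars that did not overlap were found for 0 probe sets higher and 4 lower in 93-11 as deposited, beside 1.47% and 10.4% of all rice probe sets, and for 3 higher and 2 lower after scaling, beside 6.55% and 8.02%. Of the 22436 sets that, like every expansin set, pair with a single gene, 1.68% were higher and 17.8% lower as deposited, against 12.6% and 13.6% for scaled values.

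By class, the alpha-expansins were called in both directions, with 2 higher and 2 lower of 16 after scaling and 0 and 2 as deposited. The beta-expansins were called lower alone, 2 of 12 (16.7%) as deposited and 1 (8.33%) after scaling. Of the 5 expansin-like probe sets, 1 was called higher in either fit. Beside these stand 1.66% higher and 11.9% lower of all rice probe sets as deposited, and 7.84% and 9.21% after scaling. For those paired with exactly 1 gene the shares were 1.68% and 17.8% as deposited, and 12.6% and 13.6% after scaling. The beta shares called lower were thus near or below these. The median difference as deposited was -0.04 for alpha, -0.24 for beta and -0.12 for expansin-like genes, beside -0.16 over all rice probe sets and -0.24 over those paired with exactly 1 gene. After scaling the medians were 0.11, -0.02 and 0.14, beside 0.03 and 0.05. As deposited, 9 of 16 alpha, 10 of 12 beta and 3 of 5 expansin-like probe sets were below 0, beside 41477 of all 57258 and 17725 of the 22436 paired with 1 gene. After scaling these were 6 alpha, 8 beta and 2 expansin-like, beside 25491 of all and 9862 of those paired with 1 gene. Differences between the classes were not tested, since genes of a class are not replicates.

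**Figure D3:**
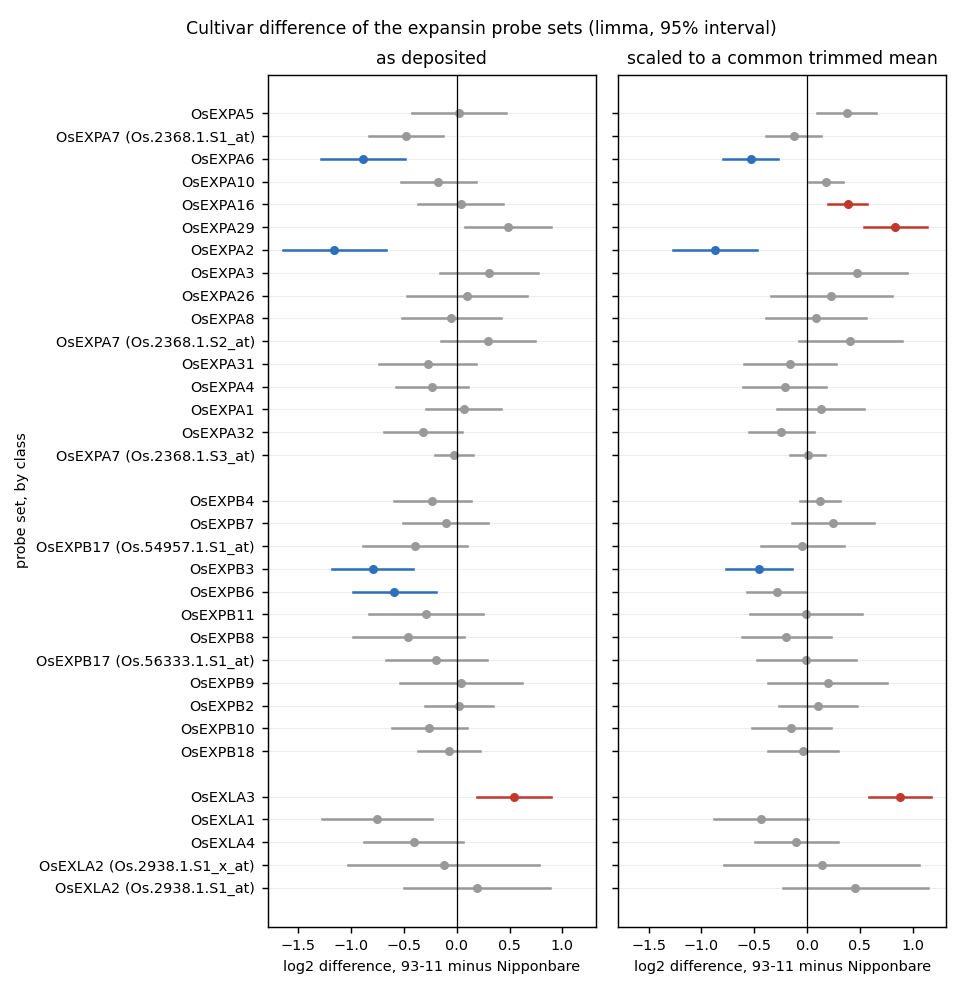
Log2 difference, 93-11 minus Nipponbare, of each expansin probe set with its 95% interval from limma, as deposited (left) and scaled (right). Red points were called higher and blue points lower in 93-11; between the panels the points move to the right, and 3 calls (OsEXPA2, OsEXPA6 and OsEXPB3 lower) together with OsEXLA3 higher stand in both.

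The 9 strong members moved with the brightness of their array. Nipponbare replicate 2 was the highest of the 10 arrays for 6 of the 9 as deposited and for 0 after scaling, and their summed signal was 12854 to 18666 in 93-11 and 14888 to 23127 in Nipponbare as deposited, against 16096 to 19447 in 93-11 and 14644 to 19478 in Nipponbare after scaling. Scaling made the spread between replicates smaller for 8 of the 9, and OsEXPB7 was the exception. Their median SD of log2 signal was 0.32 as deposited and 0.21 after scaling, beside 0.29 and 0.17 over the 11006 rice probe sets above 2.5 in both cultivars. Of the strong members, OsEXPA6 was called lower by each fit, and OsEXPA16 and OsEXPA29 higher after scaling. The shares of those 11006 probe sets called were 19.2% higher and 7.70% lower after scaling, and 1.04% and 12.4% as deposited.

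Spread depended on level. The 12 expansin probe sets with a mean log10 signal of 1 or less had a median SD of log2 signal of 1.46 between replicates, beside 1.23 for all rice probe sets at that level, and the 7 above 3 had 0.31 beside 0.27. This SD is of plain log2 signal, whereas differences were fitted with a constant added to the signal, so the intervals did not follow it. As deposited, the interval among these weak members was -0.54 to 0.62 for OsEXPB9 but -0.21 to 0.15 for the S3_at probe set of OsEXPA7. That of the strong OsEXPA5 was -0.43 to 0.47. The constant also shrinks differences near background, so a narrow interval there is no sign of a well-determined difference. The arrays numbered 5 had the highest actin 3′ to 5′ signal ratios, a sign of RNA quality, at 4.84 in 93-11 and 4.545 in Nipponbare, with 2.74 to 3.77 on the other 8 arrays. The GAPDH ratio was highest in 93-11 replicate 1, at 6.32, with 6.15 and 5.72 on the arrays numbered 5 of 93-11 and Nipponbare, and the cyclophilin ratio, 2.79 to 3.58 over all arrays, did not set these arrays apart. With both arrays numbered 5 left out, OsEXPA2, OsEXPA6, OsEXPA16, OsEXPA29 and OsEXLA3 kept their scaled calls.

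**Figure D4:**
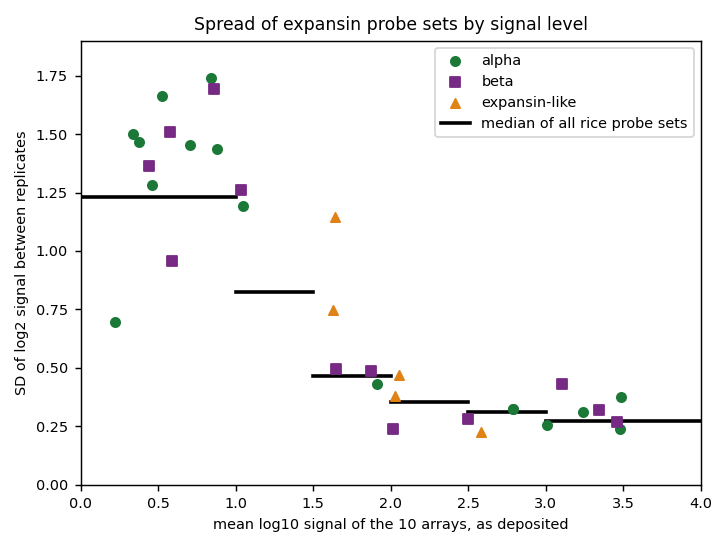
SD of log2 signal between replicates, pooled over the cultivars, against the mean log10 signal of the 10 arrays for the 33 expansin probe sets, by class, with the median of all rice probe sets in each level range as black bars. The spread of the expansins falls as their signal rises, and OsEXLA2 (the highest pair of triangles) stands above the bars near its level.

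Other genes of cell extension were read from the same fits, to be set beside the shares of probe sets paired with 1 gene, 1.68% higher and 17.8% lower as deposited and 12.6% higher and 13.6% lower for scaled values. Of 13 probe sets of cellulose synthases, the enzymes that make the microfibrils on which expansins act, 0 were called higher in 93-11 by either fit, 3 were called lower as deposited and 2 after scaling, with median differences of -0.37 and -0.04. Of 24 probe sets of cellulose synthase-like genes, which make matrix polysaccharides, the deposited values gave 1 higher and 6 lower and the scaled values 3 higher and 4 lower. Of 12 endo-glucanase probe sets, 1 was called higher as deposited and 3 after scaling, and 0 were called lower by either fit. Of 13 probe sets of plasma membrane aquaporins, which carry the water that drives expansion, 3 were called lower by each fit, and 1 was called higher after scaling alone. The single xyloglucan endotransglucosylase probe set, OsXTH8, had 438 ± 220 in 93-11 and 793 ± 389 in Nipponbare (SD, n = 5 each), a difference that did not pass the test (-0.83, adjusted p = 0.15).

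The list of growth-regulating factors, transcription factors that promote cell proliferation in young organs, was also read. Of its 12 probe sets, 11 were above 2.5 in both cultivars, 0 were higher and 1 lower in 93-11 as deposited, and 9 were higher and 0 lower after scaling, with median differences of 0.16 and 0.52. Of the 11006 rice probe sets above that level in both, 1.04% were higher and 12.4% lower as deposited, and 19.2% were higher and 7.70% lower after scaling. Their median differences were -0.23 as deposited and 0.12 after scaling. The 1 probe set called lower as deposited belongs to GIF1, which was matched by this symbol but is a cell wall invertase gene of rice and no growth-regulating factor. No difference between these lists and the expansins was tested.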

How the data were processed

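Total RNA from young panicles was measured on 10 rice arrays, 5 for each cultivar. The deposited values are probe set signal intensities on a linear scale, computed by the authors with GCOS 1.3 per the submitters' processing notes, and were not equal in array mean. All 10 columns were matched to samples. Of 57381 probe sets, 123 controls were left out; 22436 of the others were paired with 1 gene, 95 with several and 34727 with none by the platform annotation, with symbols updated from RefSeq. No reference sequence was used.

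Signals, as deposited or scaled to a common trimmed mean (2% of probe sets trimmed at each end), were tested as log2(signal + 16) with limma 3.58.1 in R 4.3.3 (lmFit and eBayes with trend, two-sided), and p-values were adjusted by Benjamini-Hochberg over all 57258 rice probe sets, with a threshold of 0.05. Intervals are limma's 95% intervals. The script was tested on simulated data. Values on every array are given for probe sets called in either fit and the 3 of highest signal in each class. For genes whose probe sets disagreed they are given for the strongest probe set, and the weaker sets are given as means. Other members were named after their values were seen. The members and all lists were chosen with earlier results of these data known. Alternatives covered the constant, filters, moderation, normalization, the replicate block and leaving out each array. The number of arrays limits the precision.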

Additional observations from a re-analysis of the deposited data

Results flagged for a closer look

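In 8 of 66 groups of 5 arrays, 1 array stood apart from the other 4 by Dixon's test at 95% on log2(signal + 16). For normally distributed values chance alone does this in about 1 group in 20, and that distribution was not tested. As deposited, 93-11 replicate 5 had 17.1 for OsEXPA1 (other arrays 0.72 to 3.18), 10.3 for OsEXPA31 (0.68 to 2.78) and 143.6 for the OsEXLA2 probe set ending in S1_at (27.3 to 43.0). The array 93-11 replicate 1 had 6.87 for OsEXPA4 (0.56 to 1.91), and 93-11 replicate 2 had 15.8 for OsEXPB2 (1.52 to 3.45). In Nipponbare, replicate 1 had 3.99 for the OsEXPA7 probe set ending in S3_at (1.31 to 1.74) and replicate 5 had 1.597 for the weaker OsEXPB17 probe set (16.5 to 21.8). Nipponbare replicate 2, the brightest array as deposited, had 368.8 for OsEXLA3 (296.5 to 306.7). This was the 1 case of a probe set with a call. The other 7 were below 2.5 on the log10 scale in both cultivars.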

How the results depend on the processing

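OsEXPA2 and OsEXPA6 were called lower in 93-11 under each of the alternatives in which they were tested (19 and 21 as deposited, 18 and 20 scaled; OsEXPA2 was too weak for both filters). OsEXPA16, OsEXPA29 and OsEXLA3 were called higher under all 20 alternatives to the scaled fit. OsEXPB3 kept its deposited call in 19 of 20 and its scaled call in 8 of 20, OsEXPB6 its deposited call in 8 of 20, and OsEXLA3 its deposited call in 11 of 21. Of all members, 1 was called higher as deposited, but 0 with both arrays numbered 5 left out (a choice made after seeing the data), 0 when only probe sets above 2.5 were tested (10 members, OsEXLA3 among them with adjusted p = 0.051), 3 with quantile normalization and 0 with the replicate block. Called lower as deposited were 4, against 2 with that filter (OsEXPA6 and the S1_at probe set of OsEXPA7) and 2 with quantile normalization. That filter left OsEXPA2, OsEXPB3 and OsEXPB6 untested, so their calls were not lost on testing there. Leaving out 1 array gave 0 to 2 higher and 3 to 6 lower as deposited, against 3 to 4 and 2 to 4 after scaling. The count of 9 strong members became 11 at a threshold of 2.0, 6 at 3.0, and 10 without Nipponbare replicate 1, 4 or 5.

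Some uncalled differences changed sign. As deposited these were OsEXPB4 (0.083 with quantile normalization, 0.12 scaled), OsEXPB7 (0.21 and 0.25), OsEXLA4 (0.12 with quantile normalization, as deposited or scaled), the S3_at probe set of OsEXPA7 (0.0071 and 0.0062) and the weaker OsEXPB17 probe set (0.023 with quantile normalization). With both arrays numbered 5 left out, OsEXPA16 was at -0.11 and OsEXPA5 at -0.14 as deposited, and the stronger OsEXPB17 probe set at 0.028 scaled. The scaled difference of the weaker OsEXPB17 set was 0.092 with a constant of 1 and 0.022 with quantile normalization. Leaving out 1 array, the ranges as deposited were -0.13 to 0.16 for OsEXPA16, -0.11 to 0.15 for OsEXPA5, -0.22 to 0.0028 for OsEXPB7 and -0.051 to 0.0084 for the S3_at set of OsEXPA7. Scaled, they were -0.023 to 0.041 for that set, -0.12 to 0.13 for the stronger OsEXPB17 set and -0.17 to 0.10 for the weaker. The causes were not tested.

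Pairing of the arrays by replicate number was not uniform: deviations of same-numbered arrays correlated at 0.07, -0.01, -0.13, 0.51 and 0.54 for numbers 1 to 5. The values of 0.51 and 0.54 were above those of all differently numbered pairs, which ran from -0.39 to 0.48. What the replicate number stood for in these pairs was not tested. With the number as a replicate block, 0 members were higher and 3 lower as deposited, where OsEXLA3 (adjusted p = 0.064) and OsEXPB6 (0.088) lost their calls, and 3 higher and 3 lower after scaling. For the weakest members the signal was too near background to measure a difference smaller than their spread.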
